A study of Mus musculus with 4 samples.

Results

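Thumpd1, Imp4 and Dok2 are 3 mouse genes whose array signal was far lower in embryonic stem (ES) cells than in induced pluripotent stem (iPS) lines and in bone marrow. They were chosen from 16357 genes with a symbol because an earlier look at the same signals showed them dim in ES cells alone, so their differences from ES cells are described here and not tested. Their probes were found by RefSeq accession, and each gene had 1 probe, printed as 1 spot, among the 41160 distinct probes kept. Whether other probes of these genes would give the same picture could therefore not be examined. Each of the 3 probes was well above background on all 4 arrays, and none was saturated.

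The arrays held 4 RNA samples of the mouse. The iPS lines 7 and 13 (n = 2) were labelled C57BL/6 and derived from bone marrow mononuclear cells of Oct4-EGFP transgenic mice, which carry a fluorescent reporter of a pluripotency gene. The bone marrow mononuclear cells themselves (BMMNCs, n = 1) were labelled C57BL/6 with no modification given, and the E14 ES cells (n = 1), a long-established line, were labelled strain 129. Irradiated embryonic fibroblasts served as feeders for the iPS and ES cultures, and these were depleted by a plating step on gelatin before extraction. No animal age was given, and each iPS sample is a single line. Strain, cell origin, reporter and array cannot be told apart in a comparison with ES cells, since a single ES array was used here and it alone carries the label 129.

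Signals were read as single-colour Agilent intensities, with the 75th percentile of an array's signal between 602 and 1123. Levels below are log2 signals minus that percentile, so 0 marks a spot at the percentile of its own array. With 4 arrays, precision is limited for each value given. Repeated spots (10 for a probe) varied with a median SD, in log2 units, of 0.081 to 0.096, and the absolute difference between the 2 iPS lines had a median of 0.088 over probes well above background in both. All 15 pluripotency markers were well above background in both iPS lines and in ES cells, against 8 of 15 in BMMNCs. Detection did not mean equal levels, since their iPS differences from ES cells ran from -3.70 to 1.12, with a median of -0.15. Fibroblast markers of the feeder type were well above background in 27 of 27 cases in the iPS lines and in ES cells, and in 14 of 27 in BMMNCs. Their median level was 4.16 in line 7, 4.01 in line 13, -4.68 in BMMNCs and 3.79 in ES cells. Their part in any level below was not tested.

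The 3 genes work in separate pathways. THUMPD1 is an RNA-binding adaptor known from human cells, where it brings the acetyltransferase NAT10 to transfer RNAs so that a cytidine in them is acetylated. IMP4 is a nucleolar protein with a Brix domain that joins IMP3 and MPP10 in the small subunit (SSU) processome, the particle in which the U3 RNA guides early cutting of ribosomal RNA. DOK2 is a docking protein of blood cells that tyrosine kinases phosphorylate and that recruits the GTPase-activating protein of Ras, which dampens growth signals.

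The start regions of Thumpd1 and Imp4 are shown, both genes with a higher signal in the iPS lines than in ES cells. Of the 3 genes, these 2 matched an entry. The sequences come from RefSeq on build GRCm38.p6 and run from 250 bases before to 50 bases after the annotated start, 5′ to 3′ on the gene's strand. The Thumpd1 window is chr7:119723570-119723869 on the minus strand, and the Imp4 window is chr1:34439579-34439878 on the plus strand. Capitals mark matches on either strand to 6 short motifs: the TATA box (TATAAA), the CCAAT box, the GC box (GGGCGG), the Ets core (CGGAAG), the YY1 core (AAGATGG) and the E box (CACGTG).
Thumpd1: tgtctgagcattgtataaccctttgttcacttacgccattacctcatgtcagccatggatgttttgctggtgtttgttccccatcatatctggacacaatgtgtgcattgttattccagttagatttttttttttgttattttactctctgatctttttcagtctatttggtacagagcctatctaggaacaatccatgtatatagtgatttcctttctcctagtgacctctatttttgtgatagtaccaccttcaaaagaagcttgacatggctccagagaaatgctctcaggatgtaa
Imp4: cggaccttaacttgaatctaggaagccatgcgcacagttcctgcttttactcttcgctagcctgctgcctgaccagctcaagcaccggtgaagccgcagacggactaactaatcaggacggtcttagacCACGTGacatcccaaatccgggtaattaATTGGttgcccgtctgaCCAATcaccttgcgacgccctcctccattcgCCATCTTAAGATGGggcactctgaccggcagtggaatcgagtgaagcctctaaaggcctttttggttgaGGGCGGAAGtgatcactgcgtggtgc
The Imp4 window held 2 matches to the CCAAT box, 2 to the YY1 core that stand side by side on opposite strands, 1 to the E box, and 1 each to the GC box and the Ets core, which overlap. The Thumpd1 window held no match to any of the 6. Of 32851 windows of the same length, 37.4% held the CCAAT box, 35.7% the GC box, 16.9% the Ets core, 13.6% the TATA box, 7.15% the E box and 6.34% the YY1 core. The windows also differed in base content, with 1 CpG and 38.0% G or C for Thumpd1 and 17 CpG and 54.0% for Imp4, against medians of 7 and 52.7% over all windows. So these start regions shared none of the 6 motifs and lay on opposite sides of the medians.

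Thumpd1 had the widest gap of the 3 genes. Its level was 2.88 in iPS line 7, 2.89 in iPS line 13, 2.66 in BMMNCs and -2.88 in ES cells. The iPS lines and BMMNCs lay close together, and the ES array stood far below all 3. The iPS mean of 2.89 ± 0.0064 (SD, n = 2) was 5.77 above ES cells on the log2 scale, or 54.6-fold, and BMMNCs were 46.7-fold above ES cells. The lines differed by -0.0090 (line 7 minus line 13), smaller in size than the median difference between lines. Before scaling, the spot gave an intensity of 8260 in line 7, 8339 in line 13, 3816 in BMMNCs and 142 in ES cells, with the scanner software's own error of 15.5 on the last value. The ES spot was thus dim but measured.

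Dok2 differed from the other genes in where it would be looked for, since it is known from blood cells. Its level was 3.49 in line 7, 3.54 in line 13, 3.45 in BMMNCs and -0.08 in ES cells. The iPS lines stood at the marrow level, and the ES array lay below all 3. The iPS mean of 3.52 ± 0.035 (SD, n = 2) was 12.1-fold above ES cells, a log2 difference of 3.60, and BMMNCs were 11.5-fold above. Intensities were 12598 in line 7, 13086 in line 13, 6572 in BMMNCs and 991 in ES cells. The ES signal was close to the 75th percentile of its array and so was far from background.

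Imp4 lay close to background in ES cells, and its 2 iPS lines differed more than those of Thumpd1 or Dok2. Its level was -1.37 in line 7, -1.54 in line 13, -2.17 in BMMNCs and -5.08 in ES cells. The order was the same as for Thumpd1, with ES cells lowest and the lines above BMMNCs. The iPS mean of -1.45 ± 0.12 (SD, n = 2) was 12.4-fold above ES cells, a log2 difference of 3.63, and BMMNCs were 7.52-fold above. The ES intensity of 30.9 carried a software error of 6.83, and its level lay just over -5.14, the lowest level of any probe called well above background on that array. With normexp background correction, which lifts faint spots, the iPS difference shrank to 2.30 and the BMMNC difference to 1.79 on the log2 scale. At the level of Imp4 in ES cells, give or take 0.5, the 2 iPS lines differed by up to 0.57 in 95% of probes well above background in both. Probes that missed that call in either line were left out of this range.

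**Figure D1:**
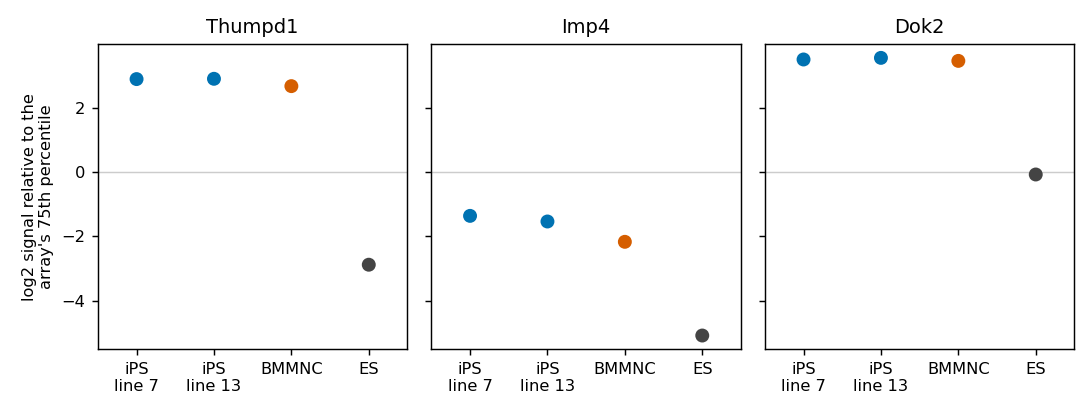
Log2 signal relative to the array's 75th percentile (vertical axis) of the single probe of each gene on each array (horizontal axis), 1 point per array with no error bar. The ES point is the lowest in each panel, at -2.88 for Thumpd1, -5.08 for Imp4 and -0.08 for Dok2.

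The iPS lines differed far less from BMMNCs than from ES cells, and the choice of genes already used the BMMNC level. The iPS mean was 0.22 higher for Thumpd1, 0.72 higher for Imp4 and 0.07 higher for Dok2 on the log2 scale. With each array's median in place of its 75th percentile these became 0.031 for Thumpd1, 0.53 for Imp4 and -0.12 for Dok2, so the order of the iPS lines and BMMNCs for Dok2 turned with the scaling. That scaling moved the median iPS difference from BMMNCs over all genes to -0.20, against -0.010 in the chosen scaling. In every scaling tried, all 3 genes were higher in both iPS lines and in BMMNCs than in ES cells.

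The pattern was then counted over the whole array. A probe was counted when both iPS arrays and the BMMNC array called it well above background and each exceeded the ES array at least 4-fold. Of 19522 probes that passed the background call on those 3 arrays, 60 were counted (0.307%), and Thumpd1, Imp4 and Dok2 were chosen for being among such probes. Of these 60, 34 were not well above background in ES cells, and 13 of the 34 kept a 4-fold gap to each of the 3 arrays when the ES level was set no lower than the lowest level of any probe well above background there. Of 19316 probes well above background on all 4 arrays 26 were counted (0.135%). Ordered by the smallest of the 3 differences, Thumpd1 was at rank 3, Dok2 at rank 14 and Imp4 at rank 24 of the 19522 probes. Among those measured on all 4 arrays Thumpd1 was at rank 1, Dok2 at rank 3 and Imp4 at rank 7. The mirror pattern, at least 4-fold higher in ES cells than on each other array, was met by 272 of 23623 probes well above background in ES cells (1.15%), and by 35 that were measured everywhere. At 8-fold 19 probes remained counted, Thumpd1 and Dok2 among them, but not Imp4.

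**Figure D2:**
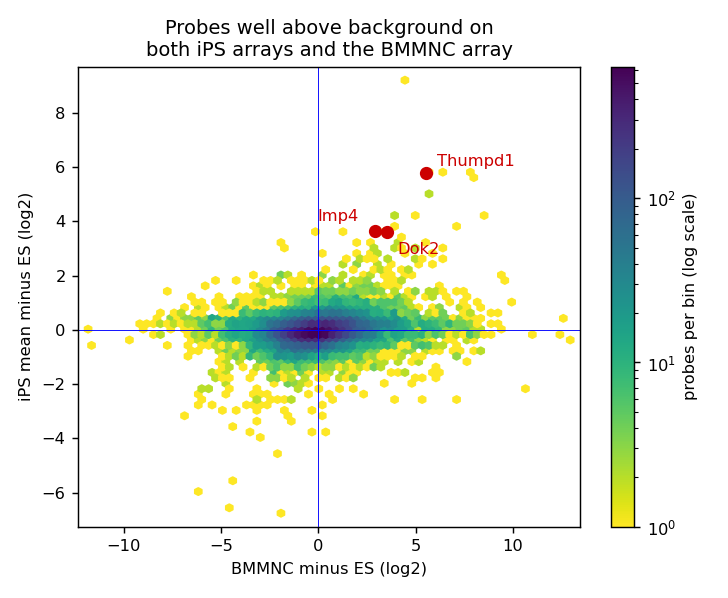
Log2 difference of the iPS mean from ES cells (vertical axis) against that of BMMNCs from ES cells (horizontal axis) for the 19522 probes that passed the background call on these 3 arrays, with the colour giving the number of probes per bin on a log scale. Thumpd1 lies at 5.77 and 5.55, Imp4 at 3.63 and 2.91, and Dok2 at 3.60 and 3.53, all in the sparse upper right.

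Genes with several probes show how often probes of 1 gene share this pattern. The 60 probes include 30 with a gene symbol, for 26 genes. Of these genes, 17 had a single probe, the 3 genes here included, 1 (Dmkn) had a second probe that was not bright, and 8 had at least 2 probes bright in the iPS lines and BMMNCs. In 4 of the 8, each bright probe was measured in ES cells and at least 4-fold lower there: Cited4, Gpat3, Rpgrip1 and Tmem40. In the other 4, Ankrd33b, Dclre1c, Prdx6 and Zfp933, another probe of the same gene was less than 2-fold below at least 1 of the 3 arrays in ES cells. The dim probe of each of these 4 was not well above background in ES cells, so its gap is a bound, at least 1.42-fold for Ankrd33b, 1.55-fold for Dclre1c and 4.18-fold for Zfp933 in the iPS lines, and smaller for Prdx6 in BMMNCs at 1.28-fold. A disagreement between probes at 4-fold on each of the 3 arrays was therefore measured for Zfp933 alone of the 4, and just over the threshold. In BMMNCs by themselves, the dim probe exceeded ES cells by at least 14.5-fold for Ankrd33b, 9.52-fold for Dclre1c and 9.11-fold for Zfp933. The other bright probe gave 3.81-fold, 1.43-fold and 0.326-fold in the same order, so against BMMNCs these probes fell on both sides of 4-fold. A single probe does not tell how other probes of Thumpd1, Imp4 or Dok2 would read. The 26 genes lie on 14 chromosomes.

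The genes most like the 3 were found by a score over the 4 arrays, the mean of both lines and BMMNCs minus ES cells, less the range of those 3 arrays. The score ranks the size of a gap in ES cells alone and does not compare a gene with the 3. ES levels that missed the background call entered it unchanged. Among 10094 genes with an eligible probe, Thumpd1 ranked 2 (score 5.47), Dok2 ranked 3 (3.48) and Imp4 ranked 7 (2.58), and these values describe the choice of the genes. Zfp874a, a zinc finger gene, ranked 1 with 5.52. Its level was -1.18 in line 7, -1.06 in line 13 and -0.65 in BMMNCs, and in ES cells it was not well above background, which bounds its excess over ES cells at 16.2-fold or more for the iPS lines and 22.5-fold or more for BMMNCs. Such a bound compares the bright group's mean with the lowest level of any probe well above background in ES cells.

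Nod1, an intracellular sensor of bacterial wall fragments, had the highest score of the other genes measured on every array. It was at 2.85 in line 7, 2.86 in line 13, 3.58 in BMMNCs and -0.52 in ES cells. Ubd, a ubiquitin-like protein, exceeded ES cells by at least 151-fold in the iPS lines and at least 5.14-fold in BMMNCs. Its iPS lines, at 2.06 and 2.14, stood far above BMMNCs at -2.77, unlike the 3 genes.

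Rpgrip1, a protein of photoreceptor cilia, gave iPS differences from ES cells of 2.81 and 2.88 by its bright probes, and a further probe missed the background call on all 4 arrays. Gpat3, an enzyme of triglyceride synthesis, gave 2.42 and 3.05, and Cited4, a transcriptional co-activator, gave 2.65 and 2.56. Prim2, a subunit of DNA primase, had a single probe with a difference of 2.53. Prdx6, a peroxidase, had a faint probe at -4.43 and -4.68 in the iPS lines and -4.78 in BMMNCs that was not well above background in ES cells, while its brighter probes gave 0.72 and 0.65. Mcoln3, an ion channel, exceeded ES cells by at least 1.70-fold and Kdm5d, a Y-linked histone demethylase, by at least 5.18-fold in the iPS lines, and neither was well above background in ES cells.

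**Figure D3:**
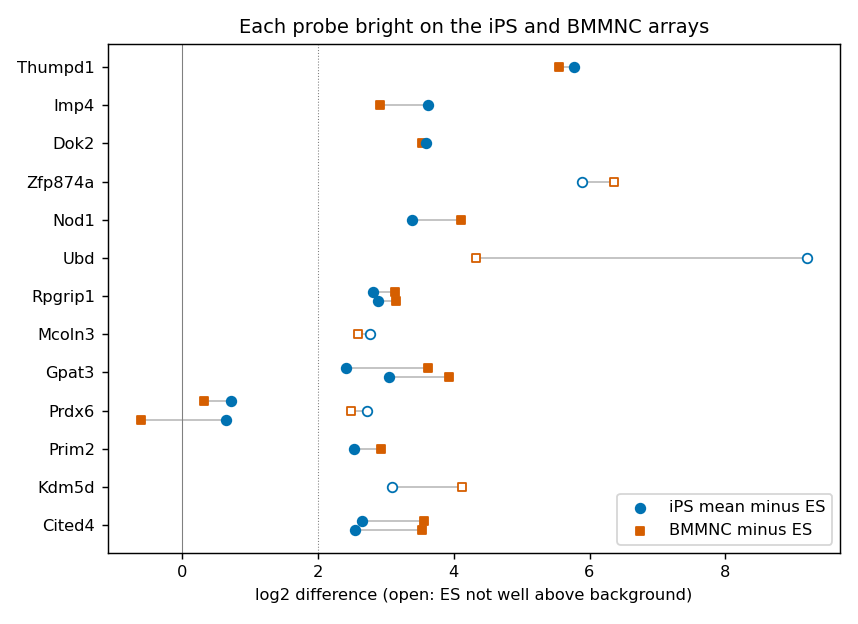
Log2 difference from ES cells (horizontal axis) of the iPS mean (circles) and of BMMNCs (squares) for each probe well above background in both groups, for Thumpd1, Imp4, Dok2 and the 10 genes most like them (vertical axis). Open symbols mark probes not well above background in ES cells, the dotted line marks 4-fold, and the brighter Prdx6 probes lie under it.

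Genes next to the 3 in RefSeq gene order were examined on the same arrays. Of the 5 genes on either side of Thumpd1 4 had a probe, and of those Eri2, an exonuclease gene, was well above background, with iPS differences from ES cells of 0.43, 0.14 and 0.12 by its 3 probes. Beside Imp4, whose neighbours had probes in 3 cases, Ccdc115 differed by -0.02 and the phosphatase gene Ptpn18 by 0.23. Ccdc115, the gene just before Imp4, was at 0.99 and 1.15 in the iPS lines, 1.33 in BMMNCs and 1.09 in ES cells. Beside Dok2, where 4 neighbours had probes, the nuclear exporter gene Xpo7 differed by 0.24 and Npm2 by 0.18. The annotated spans of Xpo7 and Dok2 overlap, and Xpo7 was at 1.67 and 1.73 in the iPS lines, 2.91 in BMMNCs and 1.46 in ES cells. Ptpn18 separated BMMNCs from the cultures instead, at -1.08 and -0.96 in the iPS lines, 5.81 in BMMNCs and -1.25 in ES cells. Fgf17, a growth factor gene that was not well above background in BMMNCs, differed by -1.28 between the iPS lines and ES cells. Acsm1, Acsm4, Acsm3 and Prss39 missed the background call on all 4 arrays, and Gfra2 missed it in both iPS lines. No neighbour that was measured on all 4 arrays had an iPS difference from ES cells above 0.43. Over whole chromosomes, genes well above background in ES and iPS cells had a median iPS difference from ES cells of 0.0055 on chromosome 7 (922 genes), 0.0004 on chromosome 1 (630 genes) and -0.01 on chromosome 14 (387 genes).

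**Figure D4:**
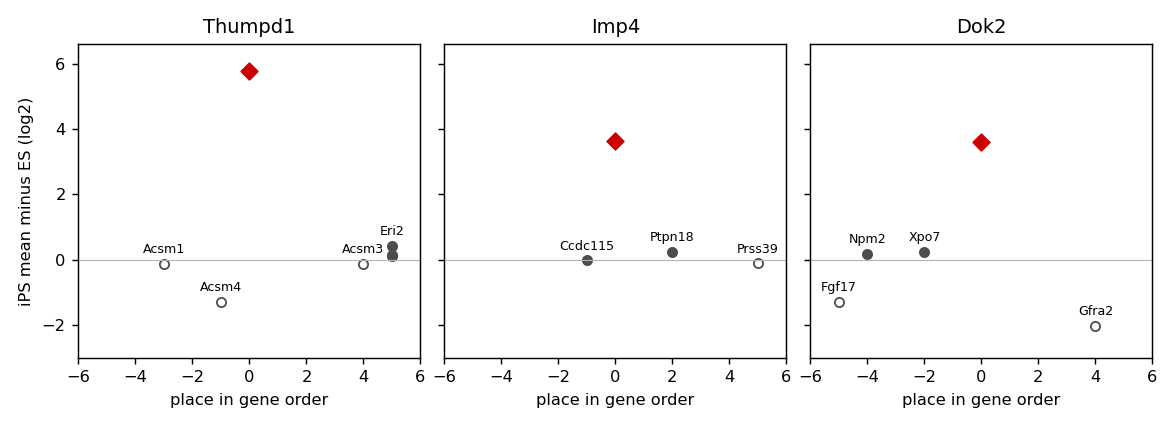
Log2 difference of the iPS mean from ES cells (vertical axis) for probes of the 5 genes before and after each chosen gene in RefSeq gene order (horizontal axis), with the chosen gene as a diamond at 0. Filled circles are probes well above background on all 4 arrays, which lie between -0.02 and 0.43, and open circles are others.

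Genes of the same pathways were tested with limma over all 21231 genes or transcripts that were well above background on at least 1 array. The iPS lines were compared with ES cells first, where an adjusted p of 0.05 was passed by 409 higher genes (1.93%) and 592 lower genes (2.79%), or 4.71% in either direction. An unadjusted p under 0.05 in limma was reached by 6639 of the 21231. The fit has 1 residual degree of freedom, between the 2 lines, and assumes the same spread for the lone BMMNC and ES arrays. The labels do not say whether the lines came from separate animals, so a p-value here reflects line-to-line spread that may be technical. The lowest adjusted p in this comparison was 0.0426, so each of its calls lies close to the threshold, and a gene that did not pass is not shown to be level. Of the 27 fibroblast markers none passed in iPS against ES at limma's adjusted p of 0.05 and 3 had an unadjusted p under 0.05, with a median difference of 0.25 and a lowest of -0.04, while 14 rose and none fell with an intensity trend. Over all genes or transcripts, 3310 rose and 4401 fell with that trend. Among the 15 pluripotency markers 1 rose and 2 fell at limma's adjusted p of 0.05. Thumpd1, Imp4 and Dok2 were left out of the list counts.

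None of 16 genes of THUMP proteins and transfer RNA modification passed limma's adjusted p of 0.05 in iPS against ES, while 4 had an unadjusted p under 0.05 (6639 of 21231 over all genes). The list's median difference was -0.13, against -0.06 over all genes. Nat10, the acetyltransferase, was at 1.10 in line 7, 1.07 in line 13, -0.22 in BMMNCs and 1.21 in ES cells, and Thumpd3, a relative with the same RNA-binding domain, was at 3.07, 3.16, 2.78 and 3.31 in that order. Neither passed the test between iPS and ES cells, with differences of -0.12 and -0.19 (limma adjusted p = 0.441 and 0.323). Thumpd2 had no matched probe.

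None of 35 other SSU processome genes passed in iPS against ES at limma's adjusted p of 0.05, and their median difference was -0.11. Of the 35, 5 had an unadjusted p under 0.05 (6639 of 21231 over all genes). Imp3 and Mphosph10, the partners of Imp4, differed by -0.13 (SE 0.097, limma adjusted p = 0.445) and -0.62 (SE 0.11, adjusted p = 0.0906). Imp3 was at 2.78 in line 7, 2.84 in line 13, 3.24 in BMMNCs and 2.94 in ES cells. Mphosph10 was at 2.08 and 2.20 in the lines, 1.68 in BMMNCs and 2.76 in ES cells. None of the 4 other Brix domain genes passed limma's adjusted p of 0.05, 1 had an unadjusted p under 0.05, and their differences lay between -0.75 (Ppan) and -0.14 (Rpf1).

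None of 6 other genes of the Dok and Frs docking proteins passed limma's adjusted p of 0.05 in iPS against ES, and 1 had an unadjusted p under 0.05. Dok1, which acts beside Dok2 in blood cells, was at 1.53 in line 7, 1.38 in line 13, 2.77 in BMMNCs and 1.02 in ES cells (log2 difference from ES cells 0.44, adjusted p = 0.144). Dok3, another blood member, was at -3.82, -3.78, 3.36 and -3.58 in the same order, so its lines lay with ES cells and far under BMMNCs. Of 20 genes for kinases, receptors and Ras regulators around Dok2, 1 fell and none rose at limma's adjusted p of 0.05, and 6 had an unadjusted p under 0.05 (6639 of 21231 over all genes).

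These counts depended on the fit. With an intensity trend in limma, 2 genes rose and 3 fell in the transfer RNA list, 1 rose and 8 fell in the SSU list, 1 fell among the Brix genes, 1 rose in the Dok list, and 1 rose and 4 fell among the Dok2 partners at the same threshold. Over all 21231 genes or transcripts, 3310 rose and 4401 fell in that fit. With the authors' value table, whose columns differ from the processed signal by 1 factor per array, no gene passed, with 6635 at an unadjusted p under 0.05.

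Against BMMNCs the same lists held far more calls, in a comparison where limma's adjusted p of 0.05 was passed by 8055 higher genes (37.9%) and 8029 lower genes (37.8%), or 75.8% in either direction. Of 35 SSU processome genes 29 rose and 1, Imp3, fell, with a median difference of 1.02 against -0.010 over all genes. Utp4 rose by 2.48 (SE 0.10, adjusted p = 0.00131) and Wdr3 by 0.40 (SE 0.095), while Imp3 fell by 0.43 (SE 0.097, adjusted p = 0.0347). All 4 Brix domain genes rose (3 with median scaling), from Rpf1 at 0.60 to Brix1 at 2.14. In the transfer RNA list 10 of 16 rose and 2 fell, from Nat10 at 1.30 (SE 0.093) to the deaminase gene Adat1 at -0.98 (SE 0.13). Beside them 26 of the 27 fibroblast markers rose and 1, S100a4, fell, with a median of 6.98, and their part in these counts was not tested. With median scaling the counts were 23 risen and 2 fallen for the SSU list and 9 and 3 for the transfer RNA list. Over all 21231 genes or transcripts, 7105 rose and 9090 fell with that scaling.

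The Dok and partner lists held calls in both directions against BMMNCs, and the blood markers fell. Of 6 Dok and Frs genes 3 rose and 2 fell, with Dok3 at -7.16 (SE 0.094, adjusted p = 0.000715), Dok1 at -1.32 (SE 0.12) and Dok5, not well above background in BMMNCs, among those that rose. Of the 20 partners 9 rose and 9 fell, from the growth factor receptor Egfr at 5.58 (SE 0.13) to the kinase Lyn at -6.12 (SE 0.10). All 17 pan-haematopoietic markers fell in the iPS lines, with a median of -6.61, and none of them passed against ES cells, where 1 had an unadjusted p under 0.05 and where 3 rose and 2 fell with an intensity trend. Over all 21231 genes or transcripts, 6639 had an unadjusted p under 0.05 against ES cells, and 3310 rose and 4401 fell with that trend. The markers' median level was -2.67 in line 7, -2.62 in line 13, 3.21 in BMMNCs and -2.48 in ES cells. The level of Dok2 in the lines and in BMMNCs was used to choose it and is not set against these markers. In RNA of mixed cells, fewer cells of a type and less RNA per cell cannot be told apart.

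**Figure D5:**
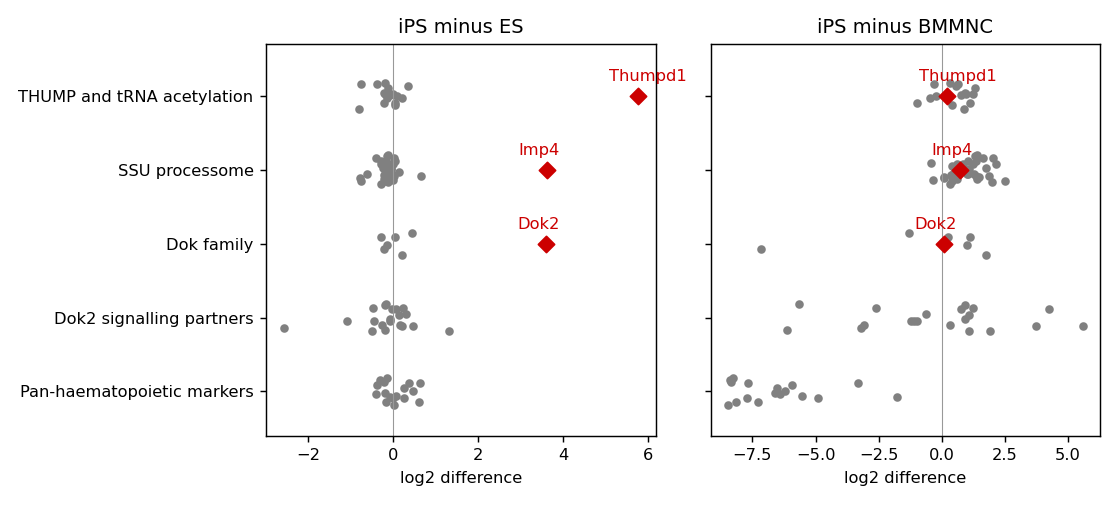
Log2 difference of the iPS mean from ES cells (left) and from BMMNCs (right) on the horizontal axis for genes of 5 lists (rows; 1 point per gene, spread vertically at random), with Thumpd1, Imp4 and Dok2 as diamonds in the row of their list. On the left the diamonds lie at 5.77, 3.63 and 3.60, and on the right at 0.22, 0.72 and 0.07, where the pan-haematopoietic markers have a median of -6.61.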

How the data were processed

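Cy3-labelled RNA of 4 samples was hybridised to Agilent arrays in a single colour, per the labels' protocols, and read with Agilent Feature Extraction 9.5.1.1, per the file headers. The file headers place the 4 arrays on 1 slide, scanned together. The deposited values are intensities, background-subtracted and spatially detrended within each array, per the file headers. The authors also deposited a table of intensities, which was found to be the same signal times 1 factor per array, linear and not centred; its columns have medians of 135.9 (line 7), 133.6 (line 13), 106.2 (BMMNCs) and 139.9 (ES cells), and the origin of these factors is unknown.

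Control spots and outlier spots were left out, which removed 14 probes, spots of a probe were averaged as log2 values, and the 75th percentile over the non-control spots of each array was subtracted. A probe counted as well above background when a share of 0.5 or more of its spots was marked so. For the list counts and for limma, a gene counted so on an array when any of its probes did. That probe need not be the one whose level is given. Accessions without versions were matched to RefSeq genes of GRCm38.p6, which named 22948 of 41160 probes; the array design predates that build, so genes are given by name, chromosome and order, and only the start regions have coordinates. For limma 3.58.1 (R 4.3.3) a gene with several probes took the brightest on average, 3 group means were fitted to all arrays, with Benjamini-Hochberg adjustment over 21231 genes or transcripts (prior of 1.80 degrees of freedom and SD 0.093). On simulated data of this design the fit called none of the smaller differences put in. Its estimates were compared only with the simulated group means, which such a fit returns by construction. The alternatives were normexp (offset 50, on the median spot signal, since the files used here hold no mean signal), median and quantile scaling, the authors' table, other filters and folds, an intensity trend and leaving out a line.

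The genes and lists were chosen with earlier results of these data known. Named genes were the 3 genes, their closest relatives and partners, the list members past the threshold with the highest and lowest difference, the 5 genes on either side and the 10 most alike by score; genes named to complete a count of 5 or fewer, such as Dmkn, were chosen after their values were seen. Probe sequences were not used here. The values of 1 list gene are not reported here.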

Additional observations from a re-analysis of the deposited data

How the results depend on the processing

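Each of the 3 genes kept its direction against ES cells in all settings tried. The iPS difference from ES cells with normexp, median scaling, quantile normalization and the authors' table was, in this order, 5.32, 5.86, 5.90 and 5.81 for Thumpd1, and 3.51, 3.69, 3.65 and 3.64 for Dok2. For Imp4 it was 2.30 with normexp. The BMMNC difference from ES cells with normexp and median scaling was 5.05 and 5.83 for Thumpd1, 1.79 and 3.19 for Imp4 (3.13 with quantile normalization), and 3.38 and 3.81 for Dok2. The iPS difference from BMMNCs in the same 4 settings was 0.26, 0.031, 0.32 and 0.35 for Thumpd1, 0.51, 0.53, 0.59 and 0.84 for Imp4, and 0.13, -0.12, 0.20 and 0.20 for Dok2. Without line 7 or line 13 the iPS difference from ES cells was 5.77 and 5.77 for Thumpd1, 3.54 and 3.72 for Imp4, and 3.62 and 3.57 for Dok2, and that from BMMNCs 0.23 and 0.22, 0.63 and 0.81, and 0.09 and 0.04.

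Probes dim in ES cells alone numbered 216 at 2-fold, 19 at 8-fold, 21 with normexp (Imp4 no longer among them), 26 among those measured on all arrays, 39 with ES set no lower than its lowest level well above background (chosen after seeing the data), and 87 to 88 without a line. Probes bright in ES cells alone numbered 766 at 2-fold, 86 at 8-fold, 53 with normexp, 35 measured on all arrays and 297 to 314 without a line. Genes called in iPS against ES numbered 5736 with normexp, 5775 among the 14896 measured on all arrays, 7711 with an intensity trend and 615 with the mean of a gene's probes. They numbered 0 with the authors' table and 0 without the filter on dim probes in limma, where 6635 and 4719 had an unadjusted p under 0.05. The cause was not tested. Genes called in iPS against BMMNC ran from 12590, of 14896 measured on all arrays, to 17633 of 21231 with an intensity trend. Without the filter on dim probes they were 13880 of 33378, so the share called was not stable. No paired analysis was possible because ES cells and BMMNCs had a single array each. Leaving out a line leaves no residual degree of freedom, so those limma fits were not run. Faint signal limits the Imp4 value in ES cells.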
